A study of Lotus japonicus with 24 samples.

Results

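Shoots of wild-type (WT) *Lotus japonicus* plants that lived on symbiotic nitrogen were compared with shoots of WT plants fed with mineral nitrogen, by RNA sequencing. The members are the 6 WT shoot libraries of a series of 24, chosen by their labels alone. They are 3 libraries from symbiotic (S) plants and 3 from non-symbiotic (NS) plants, and all 30243 genes of the deposited table were read from them. The series also holds WT roots and the shoots and roots of *Ljasn1‐2*, a LORE1 insertion mutant of the asparagine synthetase gene *LjASN1*, each in S and NS with 3 libraries.

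All WT plants were of ecotype Gifu. S plants were inoculated with the rhizobium *Mesorhizobium loti* and watered with a nitrogen-free nutrient solution that held 3 mM KCl. NS plants received the same kind of solution with 5 mM NH4NO3 and 3 mM KNO3, without rhizobia. The study's methods give harvest at 37 days after planting for S and 26 days for NS, chosen to match the growth stage, after 8 h of light, whereas the series description gives 40 days and 4 h of light for all plants. Inoculation, nitrogen supply, the chloride or nitrate salt of potassium and the age at harvest cannot be told apart in this design. Each library came from a pool of 10 plants grown in 2 pots, so that plant-to-plant variation is not seen, and S plants had 1 bacterial partner. In whole shoots, fewer cells of a type and less RNA per cell cannot be told apart.

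Plants take up nitrate and reduce it to nitrite with nitrate reductase and then to ammonium with nitrite reductase, mostly in leaf cells of many species. In *L. japonicus*, however, the paper names the root as the main site of nitrate assimilation. Nitrate itself also acts as a signal that switches on these enzymes, its transporters and several regulators. In nodulated legumes the bacteria reduce dinitrogen to ammonium in the nodule, and temperate-type legumes such as *L. japonicus* send this nitrogen to the shoot mainly as the amides asparagine and glutamine, so that the shoot receives organic nitrogen and little nitrate.

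The reads recovered on genes numbered 38.5 to 49.8 M in the S shoots and 41.0 to 53.0 M in the NS shoots, within the range of 37.5 to 66.8 M of the series. Replicate 1 stood apart in both groups: the correlation of its log2 levels with its own group was 0.983 and 0.987 in S and 0.979 and 0.976 in NS, against 0.994 between replicates 2 and 3 in each. Over all tested genes, growth condition took 50.2% of the variance of the 6 libraries, the replicate number 39.2% and the rest 10.6%. The shoot label was met by the markers. The 34 genes of a green leaf list summed to 60304 to 68412 FPKM (fragments on a gene, scaled by its length and by the depth of the library) in S and 53309 to 58336 FPKM in NS. All 6 nodule genes, leghemoglobins and nodulins, were at or near 0, with sums of 0.146 to 0.365 FPKM in S and 0.146 to 0.190 FPKM in NS, against 6670 to 14327 FPKM in WT S roots. Of the 7 root genes the Casparian strip genes were at 0 except for 0.188 FPKM of 1 of them in S replicate 1, and the list summed to 6.61 to 6.96 FPKM in S and 5.04 to 5.52 FPKM in NS. The 11 flower genes summed to 14.6 to 20.9 FPKM in S and 10.1 to 11.2 FPKM in NS. In WT roots they summed to 20.7 to 28.3 FPKM in S and 11.3 to 11.6 FPKM in NS, so that the list was not particular to flowers. The part of flower buds in any result was not tested.

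Growth condition was tested in 16125 genes that reached 1 FPKM in 3 or more of the 6 libraries, as the difference of log2(FPKM + 1), S minus NS. On this scale the change of a gene of low level is understated. With limma and Benjamini-Hochberg adjustment over all of them, 996 genes (6.18%) passed the threshold of 0.05, of which 553 (3.43%) were higher in S and 443 (2.75%) lower. These are the genes called below. The 3 S and 3 NS values did not overlap in any of the 996, nor in 25.2% of all genes tested. Large changes were more often decreases: 123 called genes rose by 1 or more on the log2 scale, and 209 fell by at least as much, with extremes of 2.70 and −4.55. The median change over all genes was 0.03. A typical gene had an SD of 0.15 in S and 0.17 in NS on the log2 scale, and the smallest called change was 0.40.

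The count of calls depended on single libraries. It was 347 without NS replicate 2, 405 without S replicate 2 and 317 without S replicate 3, and 253 of the 996 genes were called in all 6 fits that left out 1 library. Without replicate 1 of both groups 2729 genes were called, among them 888 of the 996. A fit that adds the replicate number as a term (the replicate block) called 3722 genes (23.1%), 2191 higher (13.6%) and 1531 lower (9.49%), and these included all 996. Below, the number of calls of a gene list is given beside these shares, followed by the calls with the block.

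**Figure D1:**
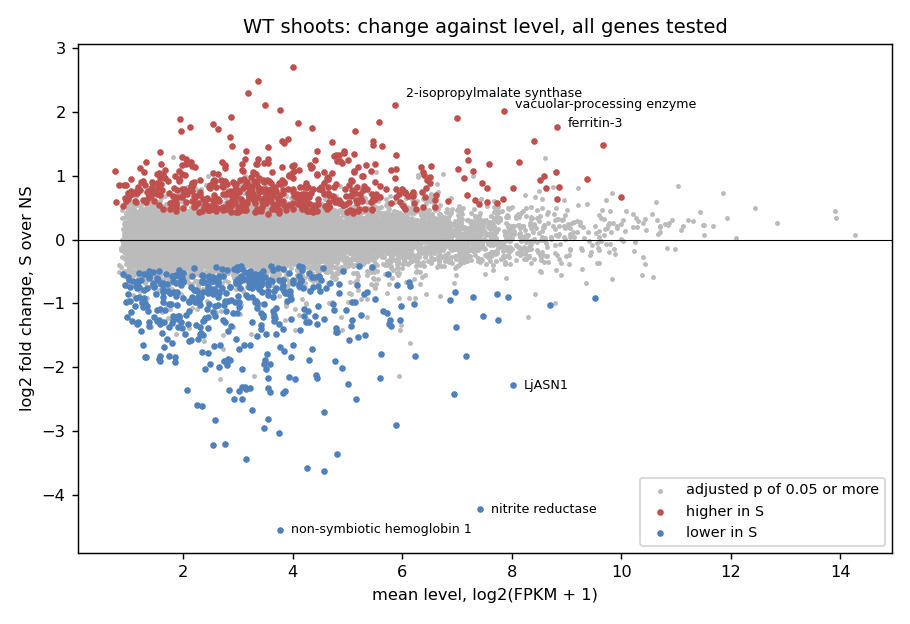
Change of each of the 16125 tested genes in WT shoots (vertical axis, log2 fold change of S over NS) against its mean level (horizontal axis, log2 of the mean FPKM of the 6 libraries + 1). Red points were called higher and blue points lower in S, and grey points had an adjusted p of 0.05 or more. Non-symbiotic hemoglobin 1 at −4.55 and nitrite reductase at −4.23 lie further from 0 than any increase.

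The enzymes of nitrate reduction showed some of the largest decreases among all genes. Nitrite reductase (LotjaGi4g1v0074400, chromosome 4, 9504697 to 9508493, minus strand, assembly of the deposited table), which turns nitrite into ammonium in the chloroplast, had 14.3, 15.7 and 18.6 FPKM in S shoots, against 311, 381 and 277 FPKM in NS shoots. Every NS library was more than an order of magnitude above every S library, and the change was −4.23 ± 0.16 on the log2 scale (SE, n = 3 each, adjusted p = 2.41e-05, limma). The enzyme that makes the precursor of siroheme, the prosthetic group of nitrite reductase, is uroporphyrinogen III methyltransferase (LotjaGi3g1v0125200, chromosome 3, 15306363 to 15311024). It had 4.3, 3.32 and 4.2 FPKM in S, against 55.4, 56 and 39.5 FPKM in NS, again without overlap, a fall by 3.36 (SE 0.16, adjusted p = 8.06e-05). The only tested nitrate reductase gene (LotjaGi1g1v0152000, chromosome 1, 26164087 to 26169107), the first enzyme of the pathway, had 35.2, 38.3 and 39.3 FPKM in S, against 193, 244 and 185 FPKM in NS, a fall by 2.42 (SE 0.14, adjusted p = 0.000154). For changes of 1 or 2 values, its decimal points had 1 further placement that keeps the order of genes in the table, with 24.4 FPKM for NS replicate 2 in place of 244 FPKM together with a changed value in a mutant root. All 3 calls were made in each of the 6 fits that left out a library.

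**Figure D2:**
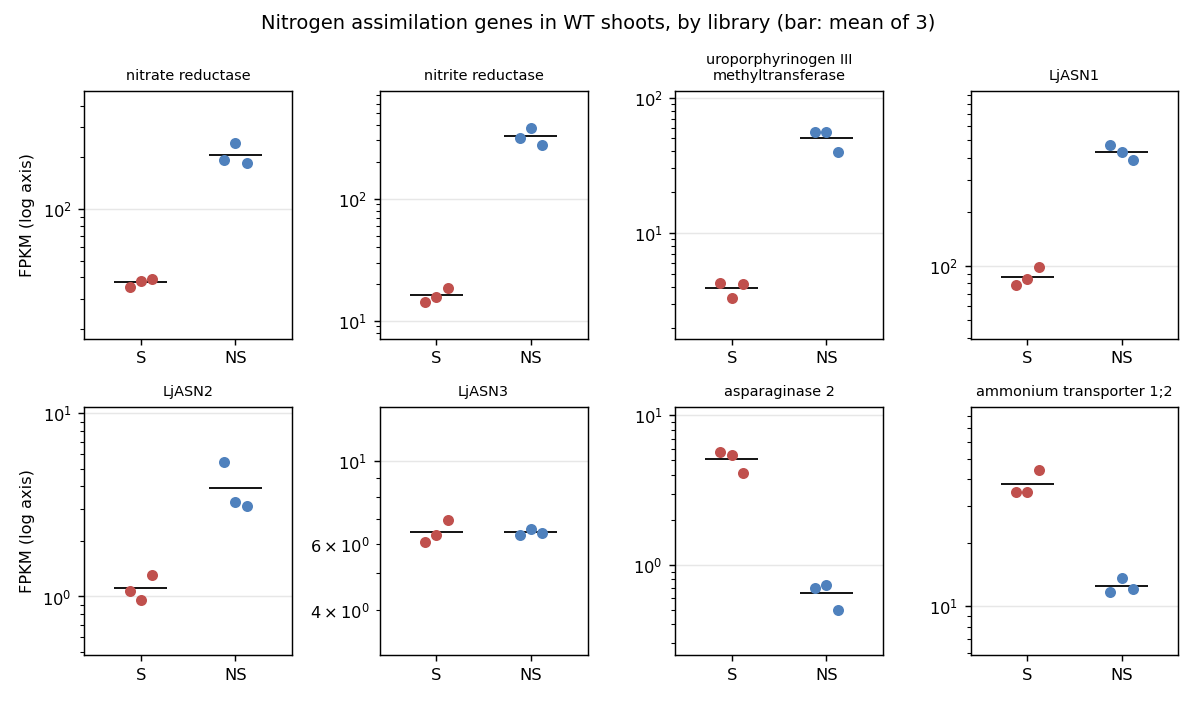
FPKM (log axis, a separate scale in each panel) of 8 nitrogen genes in the 3 S and 3 NS libraries of WT shoots, with a bar at the mean. The S and NS points do not overlap in any panel but that of *LjASN3*, and, with the decimal points as placed, S lies below NS for nitrate reductase, nitrite reductase, uroporphyrinogen III methyltransferase, *LjASN1* and *LjASN2* and above it for asparaginase 2 and ammonium transporter 1;2.

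Around these enzymes the list of nitrate and nitrite reduction, which also holds the making and supply of the molybdenum cofactor, had 2 of 17 tested genes higher and 4 lower (3 and 4 with the block), with a median change of −0.03. CNX1 (LotjaGi1g1v0059300), which inserts molybdenum into the cofactor of nitrate reductase, averaged 5.79 ± 0.384 FPKM in S and 12.6 ± 1.49 FPKM in NS (SD, n = 3 each) and fell. Both tested members that rose were molybdate transporters. Molybdate transporter 1 (LotjaGi1g1v0390400) had 6.17, 4.96 and 7.81 FPKM in S, against 2.73, 3.05 and 3.19 FPKM in NS, a change of 0.86 ± 0.15 (SE, adjusted p = 0.0154). The call was lost without NS replicate 2 (adjusted p = 0.0622) and without S replicate 3 (0.0634). The levels of the whole list summed to 197 to 209 FPKM in S and 641 to 826 FPKM in NS.

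The nitrate transporter list, which takes in the NRT1/PTR (NPF) family and so also carriers of peptides and other compounds, had 40 tested genes, of which 13 were higher in S and 3 lower, shares of 32.5% and 7.5%, and the median change was 0.27. With the block the counts were 19 and 6. The 16 calls were 4 without NS replicate 2, 6 without NS replicate 3, 6 without S replicate 2 and 4 without S replicate 3. The largest increase was that of NPF5.7 (LotjaGi3g1v0222800), of a family that moves nitrate, peptides or hormones, with 16.4, 13.4 and 14.1 FPKM in S, against 5.95, 5.54 and 5.85 FPKM in NS (a rise by 1.2 on the log2 scale, SE 0.11, adjusted p = 0.00119). The largest decrease was that of NPF5.1 (LotjaGi6g1v0082900), with 11.4, 8.89 and 12.5 FPKM in S, against 22.5, 24.9 and 24.9 FPKM in NS (−1.09 ± 0.14, adjusted p = 0.00396). Both calls were made in all 6 fits with a library left out. NPF8.3 (LotjaGi4g1v0016700), in Arabidopsis a peptide transporter and the called member of highest level, had 40, 42.8 and 43.7 FPKM in S, against 30, 29.2 and 30.3 FPKM in NS, and its call was lost without NS replicate 2 or 3 or S replicate 2 or 3 (adjusted p of 0.0856 to 0.157). It has neighbours with the same description. The gene described as high-affinity nitrate transporter 2.7 (LotjaGi1g1v0610000), which in Arabidopsis loads nitrate into the vacuole, averaged 13.2 ± 1.32 FPKM in S and 7.35 ± 2.07 FPKM in NS and also rose. Its call was lost without NS replicate 2 or any S library (adjusted p up to 0.169). Of 4 tested genes described as NPF6.3, in Arabidopsis a nitrate transporter and sensor, 1 rose (LotjaGi4g1v0207100, 20.8 ± 1.41 FPKM in S and 14.7 ± 1.22 FPKM in NS), a call made in 1 of the 6 fits with a library left out, that without NS replicate 1 (adjusted p up to 0.203 in the others). Another, LotjaGi2g1v0424800, had 3.89, 2.89 and 2.53 FPKM in S, against 5.33, 4.11 and 4.37 FPKM in NS, without a call (adjusted p = 0.132, and 0.0127 with the block), and it too has a like-described neighbour.

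An anion exchanger of the vacuole fell. CLC-b (LotjaGi1g1v0623400), of a family that exchanges nitrate or chloride for protons at the tonoplast, had 1.13, 1.14 and 1.49 FPKM in S, against 4.77, 4.49 and 4.28 FPKM in NS, a fall by 1.29 (SE 0.12, adjusted p = 0.00101, called in all 6 fits with a library left out). A neighbouring gene with the same description may have shared reads with it. In the potassium and chloride list, to which it belongs, 2 of 43 tested genes were higher and 2 lower (9 and 5 with the block), and the 4 calls were 2 without NS replicate 2 or any 1 of the S libraries. Cation/H+ antiporter 18 (LotjaGi2g1v0437600), an endomembrane exchanger of potassium, had 6.29, 5.81 and 7.73 FPKM in S, against 2.6, 3.46 and 3.06 FPKM in NS, and rose by 0.91 (SE 0.14, adjusted p = 0.00739).

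Among the regulators known to answer to nitrate, 2 of 17 tested genes were lower and 0 were higher, and 15 had no call (2 higher and 6 lower with the block). LBD38 (LotjaGi4g1v0096300), in Arabidopsis a repressor of anthocyanin and nitrate uptake genes that nitrate induces, had 105, 74.9 and 88.5 FPKM in S, against 166, 146 and 163 FPKM in NS (−0.83 ± 0.15, SE, adjusted p = 0.0159). BT1 (LotjaGi4g1v0225900), a BTB and TAZ domain protein, had 94.2, 71.2 and 71.9 FPKM in S, against 183, 157 and 121 FPKM in NS (−0.94 ± 0.18, adjusted p = 0.0217). Neither gene overlapped between the groups, yet both calls were lost without NS replicate 2, S replicate 2 or S replicate 3, with adjusted p of 0.0543 to 0.118, and that of LBD38 also without NS replicate 3 (0.0517).

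Genes that are not enzymes of the pathway but are known to follow nitrate in other plants included the largest fall of all. Non-symbiotic hemoglobin 1 (LotjaGi3g1v0504500, chromosome 3, 92242512 to 92245846), which binds oxygen and scavenges nitric oxide, had 0, 0.0161 and 0.038 FPKM in S, or 0, 2 and 4 reads. In NS it had 39.1, 23.7 and 12.7 FPKM, or 5002, 2597 and 1427 reads, and the fitted change was −4.55 ± 0.32 (SE, adjusted p = 0.000405). The gene passed the filter through its 3 NS libraries, so that leaving out an NS library was not tested for it, and an adjacent gene with the same description may have shared its reads. Monothiol glutaredoxin-S2 (LotjaGi1g1v0562100), of the CC-type class that Arabidopsis shoots make in response to cytokinin and nitrate, had 3.13, 1.15 and 1.8 FPKM in S, against 44.3, 26.5 and 32.8 FPKM in NS (−3.58 ± 0.26, adjusted p = 0.000405). Another member, glutaredoxin-S10 (LotjaGi6g1v0306800), moved the opposite way, with 26.7, 16.1 and 20.3 FPKM in S, against 4.38, 4.77 and 3.83 FPKM in NS (2.02 ± 0.18, adjusted p = 0.000864). In the list of HAR1, CLAVATA and glutaredoxin genes, which covers long-distance control of nodulation, 1 of 23 tested genes was higher and 3 lower (6 and 6 with the block). All 4 were glutaredoxins, and no HAR1 or CLAVATA gene was called without the block.

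Asparagine metabolism split by gene. *LjASN1* (LotjaGi1g1v0118200, chromosome 1, 18678532 to 18685507), which moves the amide group of glutamine to aspartate, had 78.8, 84.3 and 98.6 FPKM in S shoots, against 472, 431 and 387 FPKM in NS shoots. The lowest NS library was above the highest S library, and the gene fell by 2.29 (SE 0.14, adjusted p = 0.000235), in linear terms 4.93-fold lower. *LjASN2* (LotjaGi6g1v0130800) was a minor gene in these shoots, with 1.08, 0.959 and 1.31 FPKM in S, against 5.42, 3.27 and 3.11 FPKM in NS (−1.19 ± 0.18, adjusted p = 0.00773). Its decimal points are the lowest that its digits allow. The digits and the order of genes would also allow 10.8 or 108 FPKM in S replicate 1, 13.1 or 131 FPKM in S replicate 3, and 54.2, 32.7 or 31.1 FPKM in the NS libraries, whereas S replicate 2 kept its decimal point. With the higher S values and the lower NS values the groups would overlap, so that the direction and the call of *LjASN2* rest on the places chosen. *LjASN3* (LotjaGi6g1v0088100) had 6.06, 6.32 and 6.96 FPKM in S and 6.35, 6.57 and 6.43 FPKM in NS, overlapping groups whose difference was 0.00 ± 0.10 (adjusted p = 0.993). On the breakdown side, asparaginase 2 (LotjaGi1g1v0358100, chromosome 1, 83239067 to 83240887), which releases ammonium from asparagine, had 5.69, 5.47 and 4.14 FPKM in S, against 0.702, 0.73 and 0.498 FPKM in NS. It rose by 1.88 (SE 0.14, adjusted p = 0.000474), in linear terms 7.92-fold higher. The calls of *LjASN1* and, with these decimal points, *LjASN2* were made in all 6 fits with a library left out. Asparaginase 2 passed the filter through its 3 S libraries, so that leaving out an S library was not tested for it.

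The list of ammonium assimilation and amides had 4 of 28 tested genes higher and 3 lower (9 and 3 with the block) and a median change of 0.11. The 7 calls were 4 without S replicate 1, 4 without S replicate 2 and 3 without S replicate 3. Ammonium transporter 1;2 (LotjaGi5g1v0205600, chromosome 5, 50792433 to 50797139), which carries ammonium across the plasma membrane, had 35, 34.8 and 44.1 FPKM in S, against 11.7, 13.7 and 12.1 FPKM in NS, and rose by 1.52 (SE 0.13, adjusted p = 0.000771). Glutamate decarboxylase (LotjaGi2g1v0185300, 33.4 ± 1.1 FPKM in S and 18.5 ± 2.59 FPKM in NS) and aspartate aminotransferase 1 (LotjaGi3g1v0072700, 34.9 ± 2.5 FPKM in S and 23.6 ± 1.32 FPKM in NS) rose too, while NADH-dependent glutamate synthase (LotjaGi1g1v0224700, 12.8 ± 0.992 FPKM in S and 20.6 ± 3.54 FPKM in NS), which makes glutamate from glutamine, fell. The call of glutamate decarboxylase was lost without S replicate 3 (adjusted p = 0.0502), and those of the aminotransferase (up to 0.104) and of glutamate synthase (up to 0.164) in every fit with a library left out except that without NS replicate 1. The levels of the list summed to 2306 to 2545 FPKM in S and 2531 to 2629 FPKM in NS.

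Carriers of amino acids were called in both directions. Of 56 tested amino acid transporters 5 rose and 4 fell (11 and 6 with the block), and the 9 calls were 4 without NS replicate 2, 3 without S replicate 2 and 2 without S replicate 3. Cationic amino acid transporter 5 (LotjaGi6g1v0244700) had 40.1, 41.1 and 41 FPKM in S, against 18, 14.1 and 20.2 FPKM in NS (1.19 ± 0.14, SE, adjusted p = 0.00268). Lysine histidine transporter-like 8 (LotjaGi2g1v0357700) had 19.4, 12.1 and 13.9 FPKM in S, against 61.3, 50.5 and 31.6 FPKM in NS (−1.57 ± 0.25, adjusted p = 0.00947), a call lost without S replicate 2 (0.0521) or S replicate 3 (0.0594). Allantoate deiminase 2 (LotjaGi6g1v0244500), a step in the release of ammonium from ureides, had 10.3, 11.4 and 9.57 FPKM in S, against 4.52, 5.27 and 4.97 FPKM in NS (0.95 ± 0.11, adjusted p = 0.00294), and was the called gene among 7 tested of ureide and purine breakdown (2 higher and 0 lower with the block).

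Among the 10 largest increases of described genes were enzymes of branched-chain amino acids and a protease. The gene described as 2-isopropylmalate synthase (LotjaGi1g1v0613100), the first step towards leucine, had 78.8, 111 and 90.3 FPKM in S, against 24.6, 14.7 and 23.7 FPKM in NS (2.12 ± 0.21, SE, adjusted p = 0.00142). Branched-chain aminotransferase 2 (LotjaGi1g1v0364500), which makes or degrades leucine, isoleucine and valine, had 18.6, 16.2 and 16.8 FPKM in S, against 4.51, 2.77 and 2.55 FPKM in NS (2.12 ± 0.17, adjusted p = 0.00065). For both, neighbours with the same description leave the share of each copy uncertain. A vacuolar-processing enzyme (LotjaGi5g1v0040100), a cysteine protease of the vacuole that matures storage proteins and acts in senescence, had 363, 390 and 364 FPKM in S, against 90.5, 82.2 and 101 FPKM in NS (2.02 ± 0.13, adjusted p = 0.000235). It was the most abundant of the 10, and all 3 calls were made in every fit with a library left out.

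The called sulphur genes were mostly higher in S. Of 33 tested genes of sulphate transport and reduction 8 (24.2%) were higher in S and 1 lower, with a median change of 0.18 (13 and 1 with the block), and the 9 calls were 5 without S replicate 3. Adenylylsulfate reductase 1 (LotjaGi6g1v0294100), the main control point of sulphate reduction in plants, had 80.7, 61 and 75.7 FPKM in S, against 29, 23.8 and 23.3 FPKM in NS (1.48 ± 0.14, SE, adjusted p = 0.00142). A paralogue (LotjaGi4g1v0013600) averaged 43.3 ± 4.31 FPKM in S and 22.5 ± 1.8 FPKM in NS and rose as well. A further pair of risers are markers of sulphur shortage in Arabidopsis, LSU2 (LotjaGi1g1v0302700) with 131, 102 and 98.4 FPKM in S, against 62.1, 45.8 and 42.5 FPKM in NS (1.13 ± 0.18, adjusted p = 0.00865), and SDI1 (LotjaGi1g1v0585100) with 12.3 ± 1.98 FPKM in S and 5.42 ± 0.286 FPKM in NS. Sulphate transporters 1.3 (LotjaGi1g1v0246500), 3.1 (LotjaGi5g1v0170400) and 3.3 (LotjaGi4g1v0081000) rose by 0.82, 0.65 and 0.69, and the call of 3.1 was lost whichever library was left out (adjusted p up to 0.173), that of 3.3 without S replicate 3 (0.0619). The member that fell was adenylylsulfate kinase (LotjaGi4g1v0095300), which takes the same substrate away from reduction, with 11.3, 12.8 and 10.1 FPKM in S, against 20.3, 18.5 and 17.8 FPKM in NS (−0.68 ± 0.12, adjusted p = 0.0133, lost without NS replicate 2 at 0.0638 and S replicate 3 at 0.0836).

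Iron and zinc genes were the list with the highest median, 0.42, with 12 of 44 tested genes (27.3%) higher and 0 lower (26 and 1 with the block). The 12 calls were 4 without NS replicate 2, 7 without S replicate 2 and 4 without S replicate 3. Ferritin-3 (LotjaGi3g1v0197600, chromosome 3, 28953939 to 28957552), which stores iron in the plastid, had 485, 1150 and 492 FPKM in S, against 167, 185 and 226 FPKM in NS. The lowest S library was more than double the highest NS library, S replicate 2 was far above the other S libraries, and the change was 1.76 ± 0.32 (SE, adjusted p = 0.0174, and 0.0659 without NS replicate 2). Ferritin-2 (LotjaGi1g1v0074300, 102 ± 8.68 FPKM in S and 60.4 ± 5.79 FPKM in NS) rose too, a call lost without NS replicate 2, S replicate 2 or S replicate 3 (up to 0.0749). Ferric reduction oxidase 7 (LotjaGi6g1v0277600), which reduces iron for uptake into the chloroplast, averaged 177 ± 32.7 FPKM in S and 81 ± 10.6 FPKM in NS and rose (adjusted p = 0.057 without S replicate 3). Zinc transporter 3 (LotjaGi2g1v0340300, 8.21 ± 0.804 FPKM in S and 2.94 ± 0.125 FPKM in NS) and 3 vacuolar iron transporter homologues rose by 0.83 to 1.22. Of these homologues LotjaGi6g1v0356300 lost its call without NS replicate 2 or 3 or S replicate 1 or 2 (up to 0.0994), and LotjaGi2g1v0133500 without NS replicate 2 or S replicate 3 (up to 0.0994). The phosphate starvation list showed a smaller shift, with 4 of 46 tested genes higher and 0 lower (15 and 3 with the block), and 1, 1, 1, 0 and 0 calls without NS replicate 2, NS replicate 3, S replicate 1, S replicate 2 and S replicate 3. Its strongest member, an SPX domain membrane protein (LotjaGi1g1v0471200), had 1.07, 1.49 and 1.34 FPKM in S, against 0.253, 0.278 and 0.28 FPKM in NS (0.85 ± 0.12, adjusted p = 0.00617), and passed the filter through S alone, so that leaving out an S library was not tested.

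Calls of photosystem genes depended on the fit. None of 45 tested photosystem and light harvesting genes passed the test in limma with all 6 libraries and without the block, and 9 had an unadjusted p under 0.05. Voom called 1 and quantile normalization 2. With the block 17 were higher and 1 lower, and voom with the block called 26. The count was 3 without NS replicate 1. Without replicate 1 of both groups 8 were higher and 1 lower. The median of these 45 genes, 0.22, went down to 0.05 after quantile normalization, and their summed level was 65931 to 76596 FPKM in S and 55781 to 64020 FPKM in NS. In the Calvin cycle list 1 of 24 genes was called (6 higher and 1 lower with the block). It was a Rubisco activase (LotjaGi3g1v0229600) of 3.04, 2.16 and 2.6 FPKM in S, against 1.41, 0.861 and 1.29 FPKM in NS, called in a single fit with a library left out, that without NS replicate 1 (0.0515 to 0.119 in the others). Photorespiration, which recovers carbon and releases ammonium in leaves, had 4 of 23 genes (17.4%) higher and 0 lower (12 and 0 with the block), but 0 calls without NS replicate 2 or S replicate 3 and 2 without S replicate 2. The abundant serine--glyoxylate aminotransferase (LotjaGi6g1v0183300), the peroxisomal step from glyoxylate to glycine, had 569, 604 and 618 FPKM in S, against 332, 333 and 349 FPKM in NS (0.82 ± 0.13, SE, adjusted p = 0.00995, and 0.0716 and 0.0767 without NS replicate 2 and S replicate 3). Protochlorophyllide reductase (LotjaGi3g1v0049700), a light-dependent step of chlorophyll synthesis, had 226, 244 and 239 FPKM in S, against 125, 128 and 152 FPKM in NS (0.81 ± 0.13, adjusted p = 0.00995, and 0.067, 0.0515 and 0.0693 without NS replicate 2, S replicate 2 and S replicate 3).

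Cytosolic ribosomal proteins gave no call either way in 177 tested genes, but their changes lay on 1 side: 167 were negative and 10 positive, with a median of −0.26, and −0.32 after quantile normalization. In limma 13 had an unadjusted p under 0.05, voom called 0, and quantile normalization without the block called 9. The block called 1 higher and 108 lower, and voom with the block called 134. The members shared the replicate difference, since replicate 1 was above the other replicates of its group by 0.44 in S and 0.47 in NS in the median of this list. Without replicate 1 of both groups the median was −0.25, with 0 genes called higher and 62 lower. The part of the replicate difference in the result was not tested in another way. Summed levels were 32242, 22695 and 23456 FPKM in S, against 39899, 27945 and 26747 FPKM in NS, so that the groups overlapped. Plastid ribosomal proteins had 0 calls among 67 tested genes and a median of −0.02 (1 with an unadjusted p under 0.05, 0 with voom, and 2 higher and 3 lower with the block).

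Sugar genes were called in both directions. Of 82 tested genes of sucrose metabolism and sugar transport 9 were higher in S and 4 lower (19 and 10 with the block), with a median of 0.03, and the 13 calls were 4 without NS replicate 2, 4 without S replicate 2 and 2 without S replicate 3. Of the risers 3 were SWEET14-like genes, of the family that lets sugars out of cells. The strongest (LotjaGi1g1v0335200) had 88, 58.8 and 75.5 FPKM in S, against 24.7, 15.1 and 20.1 FPKM in NS (1.85 ± 0.20, SE, adjusted p = 0.00216). The most abundant (LotjaGi4g1v0419400) had 253, 198 and 232 FPKM in S, against 151, 102 and 118 FPKM in NS (0.88 ± 0.17, adjusted p = 0.0223), and it lies beside a gene with the same description and was called in a single fit with a library left out, that without NS replicate 1 (0.0515 to 0.115 in the others). The SWEET14-like gene next to it (LotjaGi4g1v0419500, 32 ± 3.63 FPKM in S and 16 ± 4.22 FPKM in NS) lost its call without NS replicate 2, S replicate 2 or S replicate 3 (up to 0.0805). The sucrose transporter SUC2 (LotjaGi5g1v0281800), in Arabidopsis the loader of the phloem, averaged 11.3 ± 0.797 FPKM in S and 5.87 ± 0.406 FPKM in NS and rose in every such fit. Trehalose-phosphate phosphatase D (LotjaGi1g1v0241200), which removes a sugar signal, fell to 2.68, 1.63 and 1.83 FPKM in S, against 8.54, 6.47 and 4.3 FPKM in NS (−1.26 ± 0.22, adjusted p = 0.0141, with 0.0581 to 0.0789 without NS replicate 2, S replicate 2 or S replicate 3). In the starch list 2 of 37 genes rose and 1 fell (12 and 2 with the block), with 5 calls without NS replicate 1 and 1 without NS replicate 2, S replicate 2 or S replicate 3, and alpha-amylase 2 (LotjaGi5g1v0002500), with 35.4, 37.1 and 42.3 FPKM in S, against 20.8, 23 and 21.2 FPKM in NS, was called in all 6 fits.

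**Figure D3:**
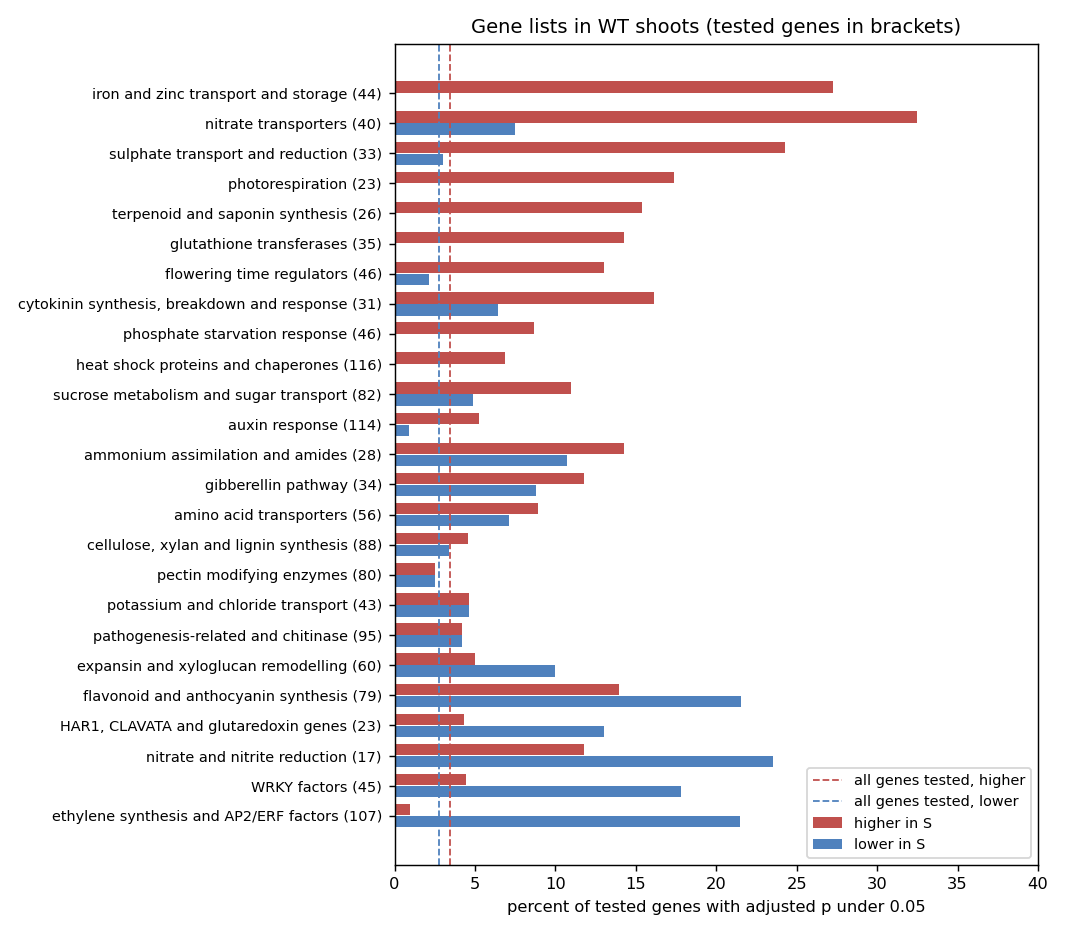
Percent of tested genes called higher (red) and lower (blue) in S shoots for the gene lists with 4 or more calls, with the number tested in brackets. Dashed lines mark the shares over all genes tested, 3.43% higher and 2.75% lower, and the iron and zinc, nitrate transporter and sulphate lists reach furthest to the right in red, the flavonoid, nitrate reduction and AP2/ERF lists in blue.

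Flavonoid genes were called more often than any other list by number, and in both directions: 11 of 79 tested genes (13.9%) were higher and 17 (21.5%) lower, with a median of 0.02 (24 and 26 with the block). The 28 calls were 15 without NS replicate 2, 14 without S replicate 2 and 12 without S replicate 3. The fallers were mostly genes of phenylalanine ammonia-lyase, chalcone synthase, 6'-deoxychalcone synthase and the isoflavonoid branch, by which legumes make phytoalexins. Not all called genes of these classes fell, and chalcone synthase 3 (LotjaGi1g1v0635000) was not their only riser. Phenylalanine ammonia-lyase 1 (LotjaGi3g1v0071500), the entry to phenylpropanoids, had 0.618, 0.416 and 0.305 FPKM in S, against 10.4, 11.5 and 6.51 FPKM in NS (−2.83 ± 0.20, SE, adjusted p = 0.000378), and passed the filter through NS alone, so that leaving out an NS library was not tested. The copies LotjaGi1g1v0690200 and LotjaGi1g1v0690300 fell by 1.41 and 1.44, the second of them not without NS replicate 2, S replicate 2 or S replicate 3. The gene described as 2-hydroxyisoflavanone synthase (LotjaGi4g1v0063900), which opens the isoflavonoid branch, averaged 6.84 ± 1.24 FPKM in S and 34.6 ± 6.71 FPKM in NS (−2.17), and isoflavone reductase (LotjaGi2g1v0388100) averaged 5.08 ± 2.27 FPKM in S and 15.7 ± 5.58 FPKM in NS (−1.47, lost without NS replicate 2, S replicate 2 or S replicate 3, up to 0.113). The risers were mostly hydroxylases, reductases and glycosyltransferases of the flavonol and anthocyanin side. CYP75B137 (LotjaGi4g1v0216400), a flavonoid 3'-monooxygenase that adds a hydroxyl group to the B ring, had 25.4, 24.4 and 27.8 FPKM in S, against 6.23, 6.2 and 7.19 FPKM in NS (1.83 ± 0.11, adjusted p = 0.000192), with a gene of the same description nearby. Flavonol synthase (LotjaGi1g1v0327900, 0.91) and the dihydroflavonol 4-reductase gene (LotjaGi5g1v0013400, 0.70) rose as well, the last not without NS replicate 2 or S replicate 3 (up to 0.0547).

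Chalcone synthase, the enzyme that closes the first flavonoid ring, showed this split within 1 gene family. The table lists 32 such genes, 12 were tested, 1 was called higher and 8 lower. The gene of highest level (LotjaGi3g1v0078700) had 2803, 2405 and 2746 FPKM in S, against 2197, 2112 and 2102 FPKM in NS, with no overlap and no call (0.31 ± 0.18, SE, adjusted p = 0.424, and 0.0359 with the block). Chalcone synthase 3 (LotjaGi1g1v0635000) was next in level, with 663, 405 and 472 FPKM in S, against 303, 213 and 242 FPKM in NS, and rose by 1.00 (SE 0.22, adjusted p = 0.0316). This call was lost without NS replicate 2 or 3 or any S library (0.0508 to 0.14). The 8 that fell were lower in level, with changes of −2.96 to −0.57. Calls were lost for LotjaGi2g1v0446700 without S replicate 2 or 3 (up to 0.0614) and for LotjaGi2g1v0450100 without S replicate 3 (0.0514). They were also lost for LotjaGi1g1v0470600 without S replicate 2 (0.0503) and for LotjaGi4g1v0372400 without NS replicate 2, S replicate 2 or S replicate 3 (up to 0.0939). The other fallers were called in all 6 fits with a library left out. Chalcone synthase 2 (LotjaGi1g1v0470800), the largest decrease, had 1.8, 1.08 and 1.29 FPKM in S, against 25.2, 21.6 and 9.58 FPKM in NS (−2.96 ± 0.31, adjusted p = 0.00186). Most of these copies lie between 94134378 and 94365661 on chromosome 2 or between 98121651 and 98130481 on chromosome 1. Some are close neighbours, such as those between 94134378 and 94145226, and others on chromosome 2 lie further off, from 94312600 on. The way the authors' counting divided reads between such copies is uncertain. The sum over all 32 genes was 3547, 2864 and 3280 FPKM in S, against 2740, 2507 and 2460 FPKM in NS, higher in each S library than in any NS library, and the 2 abundant genes made up most of it.

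**Figure D4:**
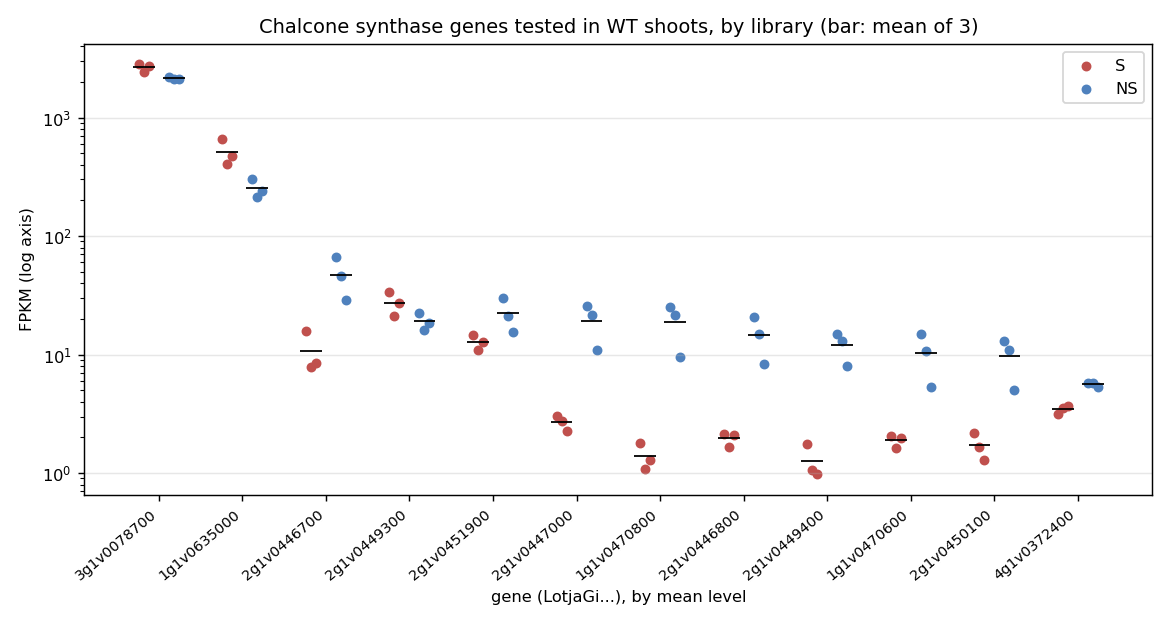
FPKM (log axis) of the 12 tested chalcone synthase genes in WT shoots, ordered by mean level, with the 3 S libraries (red) left of the 3 NS libraries (blue) and a bar at each mean. The 2 genes of highest level lie above in S, and the 8 that fell lie below, most of them at 1 to 3 FPKM in S.

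Called genes of ethylene synthesis and the AP2/ERF family were mostly lower in S. Of 107 tested genes of ethylene synthesis and AP2/ERF factors 1 was higher in S and 23 lower (21.5%), with a median change of −0.14 (10 and 42 with the block). The 24 calls were 12 without NS replicate 2, 15 without S replicate 2 and 15 without S replicate 3. ABR1 (LotjaGi4g1v0405900), in Arabidopsis an activator of genes of wound healing, had 0.786, 0.239 and 0.105 FPKM in S, against 12.6, 6.08 and 4.73 FPKM in NS (−2.61 ± 0.31, SE, adjusted p = 0.00326). Even the lowest NS library was several times the highest S library, and the gene passed the filter through NS alone, so that leaving out an NS library was not tested. The same limit held for ERF098 (LotjaGi5g1v0180400) and an ERF1B gene (LotjaGi1g1v0710100). Members of higher level fell less, such as ERF4 (LotjaGi6g1v0329200, 3.98 ± 1.36 FPKM in S and 18.2 ± 4.01 FPKM in NS, −1.96) and an ERF1A gene (LotjaGi2g1v0420700, 5.99 ± 2.47 FPKM in S and 23.5 ± 5.38 FPKM in NS, −1.84). The ethylene receptors *ETR2* (LotjaGi5g1v0182400, −0.89) and *ERS1* (LotjaGi1g1v0762500, −0.42) and 1-aminocyclopropane-1-carboxylate synthase 3 (LotjaGi2g1v0412200, −1.33), which makes the precursor of ethylene, fell too. The call of *ERS1* was made in a single fit with a library left out, that without NS replicate 1 (up to 0.201 in the others), and that of the synthase was lost without NS replicate 3, S replicate 2 or S replicate 3 (up to 0.104). The single riser was RAP2-1 (LotjaGi5g1v0026800), with 8.05, 8.96 and 5.48 FPKM in S, against 4.35, 2.97 and 2.92 FPKM in NS (0.94 ± 0.19, adjusted p = 0.0253), lost without NS replicate 2 or 3 or S replicate 1 or 2 (0.0682 to 0.109).

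Called WRKY factors were mostly lower in S. Of 45 tested WRKY factors 2 were higher and 8 lower (17.8%, and 5 and 14 with the block), and the 10 calls were 2 without NS replicate 2, 3 without S replicate 2 and 2 without S replicate 3. WRKY6 (LotjaGi3g1v0186500) and WRKY53 (LotjaGi1g1v0281800) passed the filter in only 3 of the 6 fits with a library left out, and were called in 0 and 1 of them. WRKY40 (LotjaGi3g1v0349800), an early regulator of defence and of wound responses, had 5.84, 3.91 and 3.37 FPKM in S, against 31.9, 27.2 and 13 FPKM in NS (−2.16 ± 0.31, SE, adjusted p = 0.00619). In the jasmonate list 0 of 41 genes rose and 3 fell, all of them TIFY (JAZ) repressors that jasmonate induces, and 8 rose and 9 fell with the block. Of these, TIFY 5A (LotjaGi6g1v0310700) passed the filter in only 3 of the 6 fits with a library left out and was called in 0. TIFY 10A (LotjaGi4g1v0322700) had 3.5, 1.47 and 1.16 FPKM in S, against 22.5, 10.8 and 4.87 FPKM in NS (−2.03 ± 0.47, adjusted p = 0.0408), and there were 0 calls in this list without NS replicate 2, S replicate 2 or S replicate 3 and 7 without NS replicate 1. Replicate 1 was the highest library of TIFY 10A in each group, and its part was not tested. Pathogenesis-related and chitinase genes had 4 of 95 higher and 4 lower (16 and 13 with the block), with 4, 4 and 2 calls without NS replicate 2, S replicate 2 and S replicate 3. Their shares of 4.21% in each direction were near those of all genes tested, 3.43% higher and 2.75% lower. A class-10 pathogenesis-related protein (LotjaGi6g1v0254900), 1 of several neighbours with the same description, had 1.55, 1.27 and 1.57 FPKM in S, against 9.11, 5.98 and 7.5 FPKM in NS (−1.78 ± 0.15, adjusted p = 0.000771).

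The called detoxification genes were higher in S. Of 35 tested glutathione transferases 5 were higher in S and 0 lower, with a median of 0.20 (14 and 4 with the block), and the calls were 12 without NS replicate 1 and 3 without NS replicate 2, S replicate 2 or S replicate 3. Glutathione S-transferase F11 (LotjaGi6g1v0052500) had 55.7, 49 and 40.9 FPKM in S, against 24.7, 14.2 and 18 FPKM in NS (1.33 ± 0.20, SE, adjusted p = 0.00739). Heat shock proteins and chaperones had 8 of 116 genes higher and 0 lower (20 and 8 with the block), 6 of them plastid DnaJ proteins, with 15 calls without NS replicate 1, 4 without NS replicate 2, 5 without S replicate 1 or 2 and 4 without S replicate 3. The strongest, DnaJ 11 (LotjaGi3g1v0523400_LC, a low-confidence model with a like-described neighbour), had 12.7, 10.1 and 9.15 FPKM in S, against 2.44, 1.17 and 2.77 FPKM in NS (1.92 ± 0.22, adjusted p = 0.0023). Beta-amyrin synthase (LotjaGi3g1v0537500), the entry to triterpenoid saponins, averaged 20 ± 2.52 FPKM in S and 6.15 ± 0.545 FPKM in NS and was 1 of 4 risers among 26 tested terpenoid and saponin genes, of which 0 fell (11 and 1 with the block). These 4 calls were 8 without NS replicate 1 and 1 without NS replicate 2, S replicate 2 or S replicate 3.

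In the gibberellin list, 4 of 34 tested genes rose and 3 fell (8 and 11 with the block), and the 7 calls were 4 without NS replicate 2. The risers were steps of synthesis, and the fallers were steps of breakdown and a receptor. Gibberellin 20 oxidase 3 (LotjaGi1g1v0270000), which makes precursors of active gibberellin, had 12.1, 13.7 and 13.1 FPKM in S, against 5.18, 5.39 and 4.87 FPKM in NS (1.18 ± 0.10, SE, adjusted p = 0.0009). A gibberellin 3-beta-dioxygenase 1 (LotjaGi3g1v0013500), which forms the active hormone, averaged 5.32 ± 0.44 FPKM in S and 1.93 ± 0.693 FPKM in NS, and ent-kaurene oxidase (LotjaGi3g1v0002600) 3.19 ± 0.369 FPKM in S and 0.851 ± 0.227 FPKM in NS. Gibberellin 2-beta-dioxygenase 2 (LotjaGi5g1v0242200), which inactivates the hormone, had 1.59, 0.834 and 1.22 FPKM in S, against 6.55, 3.59 and 2.7 FPKM in NS (a fall by 1.2, SE 0.25, adjusted p = 0.0295, with 0.0775 to 0.127 without NS replicate 2, S replicate 2 or S replicate 3), and the receptor GID1B (LotjaGi1g1v0732700) fell by 1.01 (adjusted p = 0.0539 without NS replicate 2).

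Auxin and cytokinin genes gave 6 higher and 1 lower of 114 tested (20 and 13 with the block) and 5 higher and 2 lower of 31 tested (8 and 8 with the block). The 7 auxin calls were 13 without NS replicate 1, 4 without NS replicate 2 or S replicate 1 and 3 without S replicate 2 or 3. The 7 cytokinin calls were 2 without NS replicate 2 or S replicate 2, 4 without NS replicate 3 or S replicate 1 and 3 without S replicate 3. SAUR genes, small proteins induced by auxin, held both ends. The low-confidence model of auxin-induced protein 15A (LotjaGi3g1v0478000_LC) had 19.6, 12.9 and 9.89 FPKM in S, against 3.36, 1.76 and 1.21 FPKM in NS (2.29 ± 0.29, SE, adjusted p = 0.00401). SAUR77 (LotjaGi3g1v0409900) had 10.9, 7.5 and 10.6 FPKM in S, against 77.2, 48 and 33.2 FPKM in NS (−2.26 ± 0.28, adjusted p = 0.00366). Cytokinin dehydrogenase 7 (LotjaGi5g1v0046100), which breaks cytokinin down, had 17.8, 20.3 and 23.3 FPKM in S, against 7.81, 9.76 and 10.6 FPKM in NS (1.05 ± 0.14, adjusted p = 0.00538), while cytokinin dehydrogenases 1 (LotjaGi1g1v0669700) and 6 (LotjaGi3g1v0117100) fell by 0.58 and 0.69. The call of the first was lost whichever library was left out, and that of the second in all such fits but the one without NS replicate 1.

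Cell wall genes were called in both directions, in part at shares near those of all genes tested (3.43% higher and 2.75% lower). The shares were 4.55% and 3.41% for the cellulose list, 2.5% and 2.5% for pectin genes, and 5% and 10% for expansins and xyloglucan enzymes. Of 88 genes of cellulose, xylan and lignin synthesis 4 rose and 3 fell (19 and 8 with the block), with 4 calls without S replicate 1 and 2 without NS replicate 2 or 3 or S replicate 2 or 3. Of 80 pectin genes 2 rose and 2 fell (7 and 12 with the block), with 7 calls without NS replicate 1, 2 without NS replicate 3 and 0 without NS replicate 2, S replicate 2 or S replicate 3. Among expansins and xyloglucan enzymes 3 of 60 rose and 6 fell (5 and 14 with the block), with 4 calls without NS replicate 2 or 3 and 3 without S replicate 2 or 3. A xyloglucan endotransglucosylase of type 30 (LotjaGi2g1v0337300) had 27.3, 23.9 and 29.2 FPKM in S, against 14, 10.6 and 10.9 FPKM in NS (1.12 ± 0.14, SE, adjusted p = 0.00349), and one of type 33 (LotjaGi4g1v0165100) had 8.79, 6.12 and 5.45 FPKM in S, against 27.2, 25.9 and 17.2 FPKM in NS (−1.65 ± 0.21, adjusted p = 0.00417). The cellulose synthase-like genes B4 (LotjaGi3g1v0186200, 25.5, 29.6 and 31.6 FPKM in S, against 11.1, 11.1 and 12.5 FPKM in NS) and H1 (LotjaGi3g1v0469200, 12.6, 10.2 and 11.4 FPKM in S, against 4.95, 3.23 and 4.34 FPKM in NS) rose by 1.25 and 1.27, and H1 has a like-described neighbour. Of the cell division list 1 of 102 tested genes was called, the kinesin KIN-12B (LotjaGi4g1v0368400), which works at the phragmoplast when cells divide, with 0.39, 0.491 and 0.43 FPKM in S, against 5.04, 5.43 and 2.36 FPKM in NS (−1.82 ± 0.23, adjusted p = 0.00422), a gene that passed the filter through NS alone. Cyclins and the other mitotic genes of that list had no call. The list had 3 calls without NS replicate 1, and 4 higher and 3 lower with the block.

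Flowering time genes had 6 of 46 tested members higher in S and 1 lower (9 and 4 with the block). The 7 calls were 1 without NS replicate 2, 4 without NS replicate 3, 2 without S replicate 1 or 2 and 0 without S replicate 3. FLOWERING LOCUS T (LotjaGi2g1v0003200), the mobile signal that starts flowering, had 41.7, 19.5 and 30.4 FPKM in S, against 15.7, 10.1 and 7.29 FPKM in NS (1.39 ± 0.31, SE, adjusted p = 0.0357). The call was lost without NS replicate 2 or 3 or S replicate 1 or 3 (0.0805 to 0.147). CONSTANS-LIKE 16 (LotjaGi2g1v0209200), a B-box factor, had 70.4, 88 and 89.6 FPKM in S, against 24.8, 31 and 43.9 FPKM in NS (1.32 ± 0.20, adjusted p = 0.0083, and 0.0546 without S replicate 3). The called gene among 16 tested MADS-box genes (2 higher and 1 lower with the block) was an AP1-like gene (LotjaGi4g1v0256600), a marker of the change to floral meristems, with 11.9, 6.42 and 6.59 FPKM in S, against 3.85, 3.65 and 2.12 FPKM in NS (1.12 ± 0.25, adjusted p = 0.035), called in a single fit with a library left out, that without NS replicate 1 (0.0551 to 0.0896 in the others). This gene belongs to the flower list whose sum was given above, and in that list the AGAMOUS gene LotjaGi4g1v0382000 had 1.18, 1.12 and 0.843 FPKM in S, against 0.419, 0.396 and 0.717 FPKM in NS. Other members of the list did not rise. An AP3-like gene (LotjaGi1g1v0424800) had 0.255, 0.135 and 0.123 FPKM in S, against 0.55, 0.372 and 0.132 FPKM in NS. POLLEN DEFECTIVE IN GUIDANCE 1 (LotjaGi1g1v0197500) had 4.17, 4.9 and 4.49 FPKM in S, against 4.15, 4.54 and 4.95 FPKM in NS. A further AP1-like gene (LotjaGi4g1v0168500) and the AGAMOUS gene LotjaGi6g1v0315800 also overlapped between the groups. The age at harvest differed between the groups in the study's methods, and its part cannot be told apart from nutrition.

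The remaining genes among the 10 largest decreases have no place in the lists above. A proline-rich protein of the DC2.15 type (LotjaGi4g1v0206400), of a family of small cell wall proteins, had 3.93, 1.27 and 2.94 FPKM in S, against 45.3, 45.2 and 37.8 FPKM in NS (−3.63 ± 0.25, SE, adjusted p = 0.000385). The aspartic proteinases described as GIP2 were lower at 2 places, LotjaGi6g1v0297900 with 0.671, 0.133 and 0.468 FPKM in S, against 21.4, 15.9 and 8.48 FPKM in NS (−3.45 ± 0.29, adjusted p = 0.00078), and LotjaGi5g1v0165200 with 21, 8.01 and 11.6 FPKM in S, against 129, 95.4 and 83.2 FPKM in NS (−2.91 ± 0.31, adjusted p = 0.00188). Both have neighbours with the same description, as has the proline-rich protein. A gene described as disease resistance protein At4g27190 (LotjaGi1g1v0654700), of the class of intracellular immune receptors, had 0.326, 0.313 and 0.216 FPKM in S, against 14.6, 11.5 and 7.61 FPKM in NS (−3.21 ± 0.20, adjusted p = 0.000235). The proline-rich protein and the second GIP2 gene were called in all 6 fits with a library left out. The other genes passed the filter through NS alone, so that leaving out an NS library was not tested for them.

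Several lists had few calls or none. There were 0 calls among 24 aquaporins (5 higher and 0 lower with the block), 0 among 15 genes of senescence and chlorophyll breakdown (4 and 4) and 0 among 21 storage and protease inhibitor genes (4 and 3). An unadjusted limma p under 0.05 was reached by 4, 9 and 5 of them, in this order, voom called 0 in each list, and quantile normalization 1 aquaporin and 0 in the others. Among 59 histone and DNA replication genes 1 rose, histone H1 (LotjaGi2g1v0382800), which packs chromatin, with 362, 317 and 315 FPKM in S, against 234, 163 and 174 FPKM in NS (0.81 ± 0.17, SE, adjusted p = 0.0267, called in a single fit with a library left out, that without NS replicate 1, and 0.067 to 0.135 in the others). The clock list had 2 of 25 genes higher and 0 lower (5 and 3 with the block), REVEILLE 1 (LotjaGi1g1v0099700), a morning-phased MYB factor, with 4.14, 5.09 and 4.71 FPKM in S, against 2.95, 1.74 and 2.05 FPKM in NS, and an ELF4-like gene. Both clock calls were lost without NS replicate 2 or 3 or S replicate 2 or 3, that of the ELF4-like gene (LotjaGi6g1v0074500_LC) also without S replicate 1 (up to 0.0996 and 0.0874 for REVEILLE 1 and the ELF4-like gene), and 4 genes were called without NS replicate 1. Of 18 chlorophyll genes 1 rose and 1 fell (5 and 1 with the block), with 1 call without NS replicate 3 and 0 without NS replicate 2, S replicate 2 or S replicate 3. The dehydration list had 2 of 23 genes higher and 1 lower (7 and 2 with the block), with 0 calls without NS replicate 2 and 1 without S replicate 3. ERD15 (LotjaGi1g1v0072700), a dehydration-induced protein, had 140, 93.9 and 103 FPKM in S, against 61.5, 49.2 and 52.7 FPKM in NS, a call lost without NS replicate 2 or S replicate 3 (up to 0.0622), and DREB1F (LotjaGi2g1v0431200), a factor of the cold and drought response, had 0.512, 0.14 and 0.118 FPKM in S, against 5.11, 2.78 and 3.07 FPKM in NS, passing the filter through NS alone.

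Shoots of *Ljasn1‐2*, which share no library with WT shoots, were compared with them in the same contrast. Of the 996 genes called in WT shoots 984 were tested in the mutant, 960 had the same sign there, and 757 were called in the same direction. These are 76.0% of the WT calls and 39.5% of the 1918 calls in the mutant, whose own share was 11.9% of 16169 genes tested (6.05% higher and 5.81% lower). A test of the difference itself (S minus NS in WT, minus S minus NS in *Ljasn1‐2*) called 36 of 16650 genes (0.216%), 35 positive (0.21%) and 1 negative (0.00601%). With the block it called 95 (0.571%), 82 positive (0.492%) and 13 negative (0.0781%). The 36 calls were 19 without *Ljasn1‐2* NS replicate 2 and 17 without *Ljasn1‐2* NS replicate 3. The 3 positive genes of smallest adjusted p had no call in WT shoots or lay under the filter there, and were high in NS shoots of the mutant. NFXL1 (LotjaGi4g1v0465300), a zinc finger regulator, averaged 8.18 ± 1.05 FPKM in WT S and 7.93 ± 1.73 FPKM in WT NS (SD, n = 3 each), and 7.74 ± 0.91 FPKM in mutant S and 59.8 ± 10.2 FPKM in mutant NS. The 1 negative gene, SOB FIVE-LIKE 6 (LotjaGi5g1v0034600), of a family that affects cytokinin responses in Arabidopsis, was called in WT shoots (2.47 ± 0.25 FPKM in S and 5.06 ± 0.09 FPKM in NS) and had 4.65 ± 0.34 FPKM in S and 4.26 ± 0.63 FPKM in NS in the mutant.

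Nitrogen genes were compared in both genotypes. Nitrite reductase fell by 4.23 (SE 0.16) in WT shoots and by 4.51 (SE 0.13) in mutant shoots, and *LjASN1*, which averaged 4.77 ± 1.07 FPKM in S and 33.7 ± 7.89 FPKM in NS in the mutant, fell by 2.29 (SE 0.14) in WT shoots and by 2.58 (SE 0.19) in mutant shoots. The interactions were 0.28 ± 0.20 for nitrite reductase and 0.29 ± 0.25 for *LjASN1* (LotjaGi1g1v0118200). By RT-PCR the paper found no *LjASN1* mRNA in mutant shoots, and it treats the line as a knock-out. The mutant gene carries the insertion in an exon, and whether the reads on it come from an intact transcript was not tested. Nitrate reductase, nitrite reductase and the 3 *LjASN* genes had no call in the interaction test. Asparaginase 2 changed by 1.88 ± 0.14 in WT and by 0.76 ± 0.16 in the mutant, an interaction of 1.13 with adjusted p = 0.0844, and 0.0411 with the block. Adenylylsulfate reductase 1 (LotjaGi6g1v0294100) changed by 1.48 ± 0.14 in WT and 0.64 ± 0.25 in the mutant, where it was not called (adjusted p = 0.15, but 0.00267 with the block). The difference was not called either (interaction 0.84 ± 0.33, and adjusted p = 0.0459 with the block).

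WT roots were again other libraries. Of the 996 genes 828 were tested in roots, 237 were called in the same direction and 68 in the opposite one. The 237 are 23.8% of the shoot calls and 5.94% of the 3993 root calls, which are 24.1% of 16541 genes tested in roots (11.6% higher and 12.5% lower). The 68 are 6.83% of the shoot calls and 1.7% of the root calls. The shoot-minus-root difference of the change was called in 3469 of 18163 genes (19.1%), 1904 positive (10.5%) and 1565 negative (8.62%). It was called in 4146 (22.8%) with the block, 2283 positive (12.6%) and 1863 negative (10.3%), and in 1562 without replicate 1 of every group. Nitrite reductase (−3.50 ± 0.23 in roots) and *LjASN1* (−2.28 ± 0.26) fell in roots too, without a called difference between organs (adjusted p = 0.104 and 0.983). Some genes changed in opposite directions in the organs. Ammonium transporter 1;2 rose by 1.52 in shoots and fell by 3.23 (SE 0.13) in roots, an interaction of 4.75 ± 0.18 (adjusted p = 1.41e-09). *LjASN2*, the gene with open decimal points, fell by 1.19 in shoots and rose by 1.38 (SE 0.40) in roots, where its level was 2288 ± 1003 FPKM in S and 812 ± 88.1 FPKM in NS (interaction −2.57 ± 0.43, adjusted p = 0.00113). CYP75B137 rose by 1.83 in shoots and fell by 0.78 (SE 0.16) in roots (interaction 2.61 ± 0.19, adjusted p = 1.01e-06). Glutaredoxin-S2 fell by 3.58 in shoots and changed by −0.03 ± 0.22 in roots (interaction −3.55 ± 0.37, adjusted p = 2.42e-05), and gibberellin 20 oxidase 3 rose by 1.18 in shoots and by 3.67 (SE 0.35) in roots (interaction −2.49 ± 0.40, adjusted p = 0.000779).

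**Figure D5:**
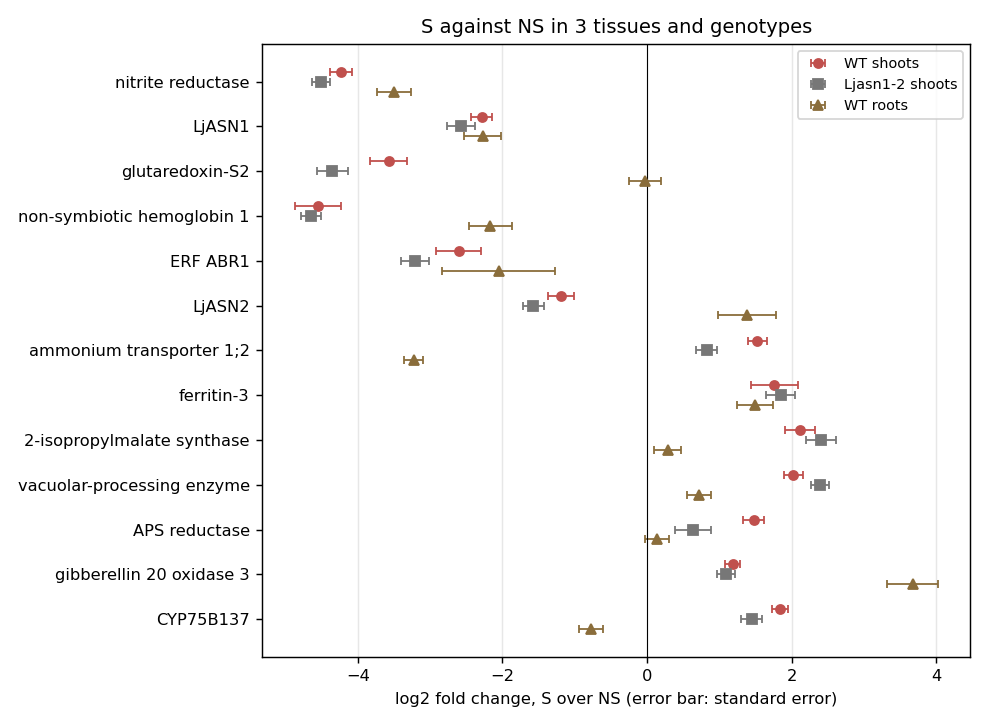
Log2 fold change of S over NS with its standard error for 13 genes in WT shoots (red circles), *Ljasn1‐2* shoots (grey squares) and WT roots (brown triangles), 3 libraries per group. Nitrite reductase and *LjASN1* lie left of 0 in all 3, while *LjASN2*, ammonium transporter 1;2 and CYP75B137 lie on opposite sides of 0 in WT shoots and WT roots.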

How the data were processed

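Messenger RNA of 24 libraries was sequenced by a service provider. Per the submitters' processing notes the authors used fastp, featureCounts 1.5.0-p3 and DESeq2 1.20.0; the aligner is not given in the sources used here. The deposited table holds FPKM, that is, reads on a gene divided by its length and by a factor of its library, which the authors do not state. Of its 725832 values 384363 (53.0%), those of 1 or more, had lost the decimal point, so its unit is recorded as other. Each point was put back from the whole number of reads that its digits allow, within a relative tolerance of 1e-09, the replicates of the gene and the order of genes in the table, and all gave a whole number. For 181 genes another place was also possible (22 of the 996 called), and only nitrate reductase and *LjASN2* of these are named. This check moved 1 value, or 2 values that stayed near the replicates. Moves of more values together were not checked, so that further genes may have other places. Gene lengths, descriptions and positions come from the same deposited table, and its gene length column (unit other, in bases) served to recover reads.

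Genes with at least 1 FPKM in 3 of the libraries of a fit were tested with limma 3.58.1 (R 4.3.3) on log2(FPKM + 1), with an intensity trend, two-sided, without a block, and adjusted over all genes tested; the log2 scale was computed here from the deposited FPKM. Labels give 3 numbered biological replicates per group. Same-numbered S and NS libraries deviated from their group means together (r = 0.71, 0.48 and 0.41). S replicate 2 with NS replicate 3 (0.40) and S replicate 3 with NS replicate 2 (0.32) also did. Replicate 1 went against the other numbers of the other group (−0.57 to −0.46). Deviations within a group of 3 sum to 0, so this check sets replicate 1 apart but cannot decide the pairing of replicates 2 and 3. The block takes its pairing from the shared number in the labels, and what the number stands for is not stated. The alternatives were this block, a pseudocount of 0.1, no filter, a minimum of 5 FPKM, quantile normalization, voom on the recovered reads, fewer gene models, all 12 shoot libraries in 1 fit, and each library left out. The steps were tested on simulated data. P-values measure the spread between these pools.

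The naming rule covered the *LjASN* genes, tested nitrate and nitrite reductases, the 10 largest increases and 10 largest decreases with a description and without overlap, for each list the largest called increase, largest called decrease and called gene of highest level, and for each interaction the 3 genes of smallest adjusted p in each direction. Not every gene it covers is printed above. Among those left out, polyphenol oxidase (LotjaGi6g1v0335400, 1.81) and granule-bound starch synthase 2 (LotjaGi1g1v0504200, −2.37) were called in 3 of the 6 fits with a library left out. Squalene monooxygenase (LotjaGi6g1v0345600, 1.73) was called in 2 and a glutathione transferase (LotjaGi5g1v0258300) in 1. A thaumatin-like protein (LotjaGi2g1v0254300, 0.79) was called in all 6. Other genes given with a mean, an SD or a change alone are further called list members, chosen after their values were seen. The members and the 42 lists, defined by words in the descriptions, were chosen with earlier results of these data known. Strand use in counting is not stated, and genes with a like-described neighbour within 10 genes are marked as uncertain in the text, without a comparison of their sequences. Sequences were not used here.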

Additional observations from a re-analysis of the deposited data

Results flagged for a closer look

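Between genotypes, the difference of the change (WT minus *Ljasn1‐2*) was called in 36 genes, and the genes of smallest adjusted p were NFXL1 (LotjaGi4g1v0465300, 2.84), ABC transporter C family member 3 (LotjaGi1g1v0018700, 2.34) and a mitochondrial external NAD(P)H dehydrogenase B2 (LotjaGi6g1v0339200, 1.83) on the positive side and SOB FIVE-LIKE 6 (LotjaGi5g1v0034600, −0.91) on the negative. ABC transporter C3 averaged 6.47 ± 0.48 FPKM in S and 6.9 ± 0.64 FPKM in NS in WT shoots, and 6.78 ± 1.18 FPKM in S and 40.7 ± 6.6 FPKM in NS in mutant shoots (SD, n = 3 each). It has a neighbour with the same description. The dehydrogenase averaged 0.83 ± 0.16 FPKM in S and 1.25 ± 0.24 FPKM in NS in WT, and 1.28 ± 0.06 FPKM in S and 8.95 ± 0.93 FPKM in NS in the mutant. The positive sign of these 3 thus goes with high values in the NS shoots of the mutant, not with a change in WT shoots.

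Between shoots and roots of WT, 3469 genes differed. The genes of smallest adjusted p on the positive side were nitrate transporter 2.1 (LotjaGi3g1v0487700_LC, 5.19), ammonium transporter 1;2 (LotjaGi5g1v0205600, 4.75) and NPF6.3 (LotjaGi2g1v0424800, 5.05). On the negative side they were an aspartic protease (LotjaGi3g1v0134800_LC, −10.50), the metal transporter Nramp5 (LotjaGi4g1v0234500, −6.49) and the RING finger protein ATL11 (LotjaGi1g1v0141200, −7.12). Nitrate transporter 2.1 was at 0 in all WT shoots, with 0.98 ± 0.15 FPKM in S and 71.5 ± 10.5 FPKM in NS in roots. Nramp5 was likewise at 0 in all WT shoots and had 89.3 ± 2.16 FPKM in S roots and 0.0015 ± 0.0025 FPKM in NS roots. ATL11 had at most 0.013 FPKM in shoots and 139 ± 18.7 FPKM in S roots, so that for 4 of the 6 genes, the protease included, the interaction carries the change of the root alone.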

How the results depend on the processing

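In WT shoots the 996 calls became 3722 with the replicate block, 618 with no filter on low values, 1511 with all 12 shoot libraries in 1 fit, 2729 without replicate 1 of every group and 4009 with voom and the block; the last 2 were added after seeing the data. With 1 library left out the count ranged from 317 to 1391. It stayed within 1.5 times under the other settings (732 to 1106). Of the calls 55.5% were higher, but 48.4% with voom, which had 464 higher and 495 lower, and 66.7% without NS replicate 1. The replicate block lost none of the 996 calls. The 36 genotype differences became 95 with the block (82 positive, 13 negative), 17 at 5 FPKM and 17 with voom, and 17 to 38 with 1 library left out. The 3469 tissue differences became 1562 without replicate 1 of every group, and 2615 to 3855 with 1 library left out.

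Of the 91 genes of the naming rule called in WT shoots, printed above or not, 39 were called in all 6 fits that left out a library and 43 lost the call in 1 or more. The other 9 passed the filter only through the group where they are high, so that 3 of the 6 fits could not test them. A sign changed in genes without a call: *LjASN3* (LotjaGi6g1v0088100) had −0.0519 to 0.0348 with 1 library left out (0.0085 without NS replicate 2, 0.0348 without S replicate 1, 0.0083 without S replicate 2) and 0.0253 without replicate 1 of every group, against −0.0029; NFXL1 (LotjaGi4g1v0465300) had −0.0522 to 0.203 (−0.0522 without NS replicate 1 and −0.0415 without S replicate 3); ABC transporter C3 (LotjaGi1g1v0018700) had 0.0023 without replicate 1 of every group. NPF6.3 (LotjaGi2g1v0424800), not called, passed with the block (adjusted p = 0.0127), with voom and the block (0.0071) and without replicate 1 of every group (0.0164). In all these the cause was not tested.

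Without the block the smallest called change was 0.40, and smaller ones were called with it. Genes under 1 FPKM were not tested, and like-named neighbours may share reads. Depth was 38.5 to 53.0 M reads in the 6 libraries. Growth condition, age and salt cannot be told apart.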

Other observations

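Gene families by protein domain, chosen after their values were seen and given with no test of the family, add to the picture of WT shoots. Cytochrome P450 enzymes, oxidases of specialised metabolism and hormones, had 20 of 96 tested genes called higher in S and 7 lower (42 and 11 with the block), with a median change of 0.22. UDP-glycosyltransferases, which attach sugars to such compounds, had 9 of 58 higher and 4 lower (20 and 8). NAC factors (NAM domain), known from senescence and cell walls, had 5 of 28 higher and 0 lower (7 and 1), and MYB-type factors 9 of 103 higher and 2 lower (19 and 11). Genes of the protein kinase domain had 3 of 343 higher and 19 lower (32 and 49), with a median of 0.02, against 0.03 over all genes. Those of the protein tyrosine kinase domain had 7 of 157 higher and 5 lower (16 and 21), with a median of 0.007, so the lean to decreases was not shared by all kinases. The shares over all genes were 3.43% higher and 2.75% lower.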
